A study of Rattus norvegicus with 65 samples.

Results

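The 10 genes described here belong to the NRF2 pathway and were followed through rat liver after treatment with 10 hepatocarcinogens: Gclc, Gclm, Gsr, Gpx2, Txnrd1, Srxn1, Nqo1, Hmox1, Osgin1 and Sqstm1. They were taken by symbol, with every probe set annotated to that symbol alone. The rule used no measured value, but the genes were chosen with earlier results of these data known. The rule gave 10 genes and 17 probe sets, of 14217 genes and 20826 probe sets with exactly 1 symbol. All 10 genes passed the filter on low values in both fits, through the probe set with the highest mean over the 65 arrays.

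NRF2, encoded by Nfe2l2, is a transcription factor that KEAP1 holds for degradation through a CUL3 and RBX1 ubiquitin ligase. Electrophiles and oxidants modify cysteines of KEAP1, NRF2 then accumulates, pairs with small MAF proteins and binds antioxidant response elements. In liver the pathway is known for the supply of reduced glutathione and thioredoxin and for enzymes that disarm quinones and other reactive metabolites. Hmox1 and Srxn1 also answer to other stress factors, among them AP-1 factors and, for Hmox1, the heme-sensitive repressor BACH1.

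The study measured liver RNA of male Sprague-Dawley rats labelled as 6 weeks old, with 1 Affymetrix array per rat, 22 groups and 65 arrays. The genotoxic set held 2-AAF, 3MeDAB and DEN, each long and short, and its own untreated control. The nongenotoxic set held 1,4-Dioxane, Clofibrate and DL-Ethionine, each long and short, and its own untreated control. The test set held DCP, ME, SN and Urethane, each long and short, and no control was analysed there. Every group had 3 rats except DEN short, which had 2. Long and short are labelled 72 and 3 hours. The treatment protocol, however, describes 3 doses in repeated groups and autopsy after 24 hours, so the words long and short are used here. For the test set the descriptions give 3 doses for long and 1 dose for short, in amounts of 50 for DCP and SN, 300 for ME and 500 for Urethane, with no unit. The controls are labelled untreated in one field and coded vc in another. Neither control carries a time, so the effect of a compound at either duration and the effect of the time of sampling cannot be told apart.

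The values are log2 signals, in which a difference of 1 is a doubling. The lowest value of an array lay between 3.33 and 3.41 in the genotoxic set, 3.23 and 3.30 in the nongenotoxic set and 2.28 and 2.40 in the test set. These ranges do not overlap, so levels were compared only within a set. All 8 hepatocyte markers lay above the median of the table on all 65 arrays. An array has no read depth, and the number of arrays limits the precision. In whole liver, fewer cells of a type and less RNA per cell cannot be told apart.

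Proximal promoters were available from RefSeq (build GRCr8, 250 bases before to 50 after a start) for 8 of the 10 genes, Hmox1 and Gsr being those without an entry. They are shown to set the proximal letters of the genes beside their unlike patterns in the values below. TGACNNNGC, the core of the antioxidant response element, searched on both strands, occurred in Gclm, Gpx2 and 1 of the 2 Txnrd1 starts, and in 12.1% of 33469 promoters. TGACTCA, the motif of AP-1 factors, had 2 matches in Srxn1, at 62 and 5 bases before the start, and in 4.63% of promoters. TGACTCA followed by GC would match both motifs, and no match here did. The promoters of Nqo1, Gclc, Osgin1 and Sqstm1 held neither set of letters in this window. Capitals mark the match, which lies on the opposite strand in each of the lines below and so appears as its reverse complement. The matches begin 172 bases before the start in Gclm, 78 in Txnrd1, 13 in Gpx2 and 62 in Srxn1.
Gclm, chr2:213031923-213032011, + strand: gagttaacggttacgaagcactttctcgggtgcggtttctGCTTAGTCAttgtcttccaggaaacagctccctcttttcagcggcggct
Gpx2, chr6:101230034-101230086, - strand: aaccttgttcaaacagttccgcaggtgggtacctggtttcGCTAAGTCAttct
Txnrd1, chr7:22755934-22756022, - strand: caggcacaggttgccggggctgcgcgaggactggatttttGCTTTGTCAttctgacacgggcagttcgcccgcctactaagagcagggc
Srxn1, chr3:161064710-161064796, + strand: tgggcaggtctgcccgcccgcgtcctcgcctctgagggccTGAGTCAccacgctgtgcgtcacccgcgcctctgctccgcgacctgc
A match is a description of the letters, not a site of binding.

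Long treatment with 2-AAF or 3MeDAB raised most of the 10 genes, DL-Ethionine long raised 4 and lowered 1, and DEN long raised 2. At the short duration 1 gene rose with DEN and 2 fell with 2-AAF. Against the control of the same set, 21 of 60 pairs of a gene and a long group were called higher and 1 lower, and of 60 pairs at the short duration 1 was called higher and 2 lower. A gene was called at an adjusted p under 0.05 (limma, Benjamini-Hochberg over all 10660 genes tested in a comparison). The calls have to be read against the share of all genes called. In 2-AAF long 7 of the 10 were higher and 0 lower, against 16.5% and 16.6% of all genes. In 3MeDAB long 8 were higher and 0 lower, against 36.9% and 17.8%. In DL-Ethionine long 4 were higher and 1 lower, against 30.8% and 23.5%, a share near the background. In DEN long 2 were higher and 0 lower, against 10.5% and 6.58%. The median difference of the 10 genes was 1.20 in 2-AAF long, 1.04 in 3MeDAB long, 0.41 in DL-Ethionine long and 0.13 in DEN long, where the median of all genes was 0.00, 0.14, 0.04 and 0.00.

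**Figure D1:**
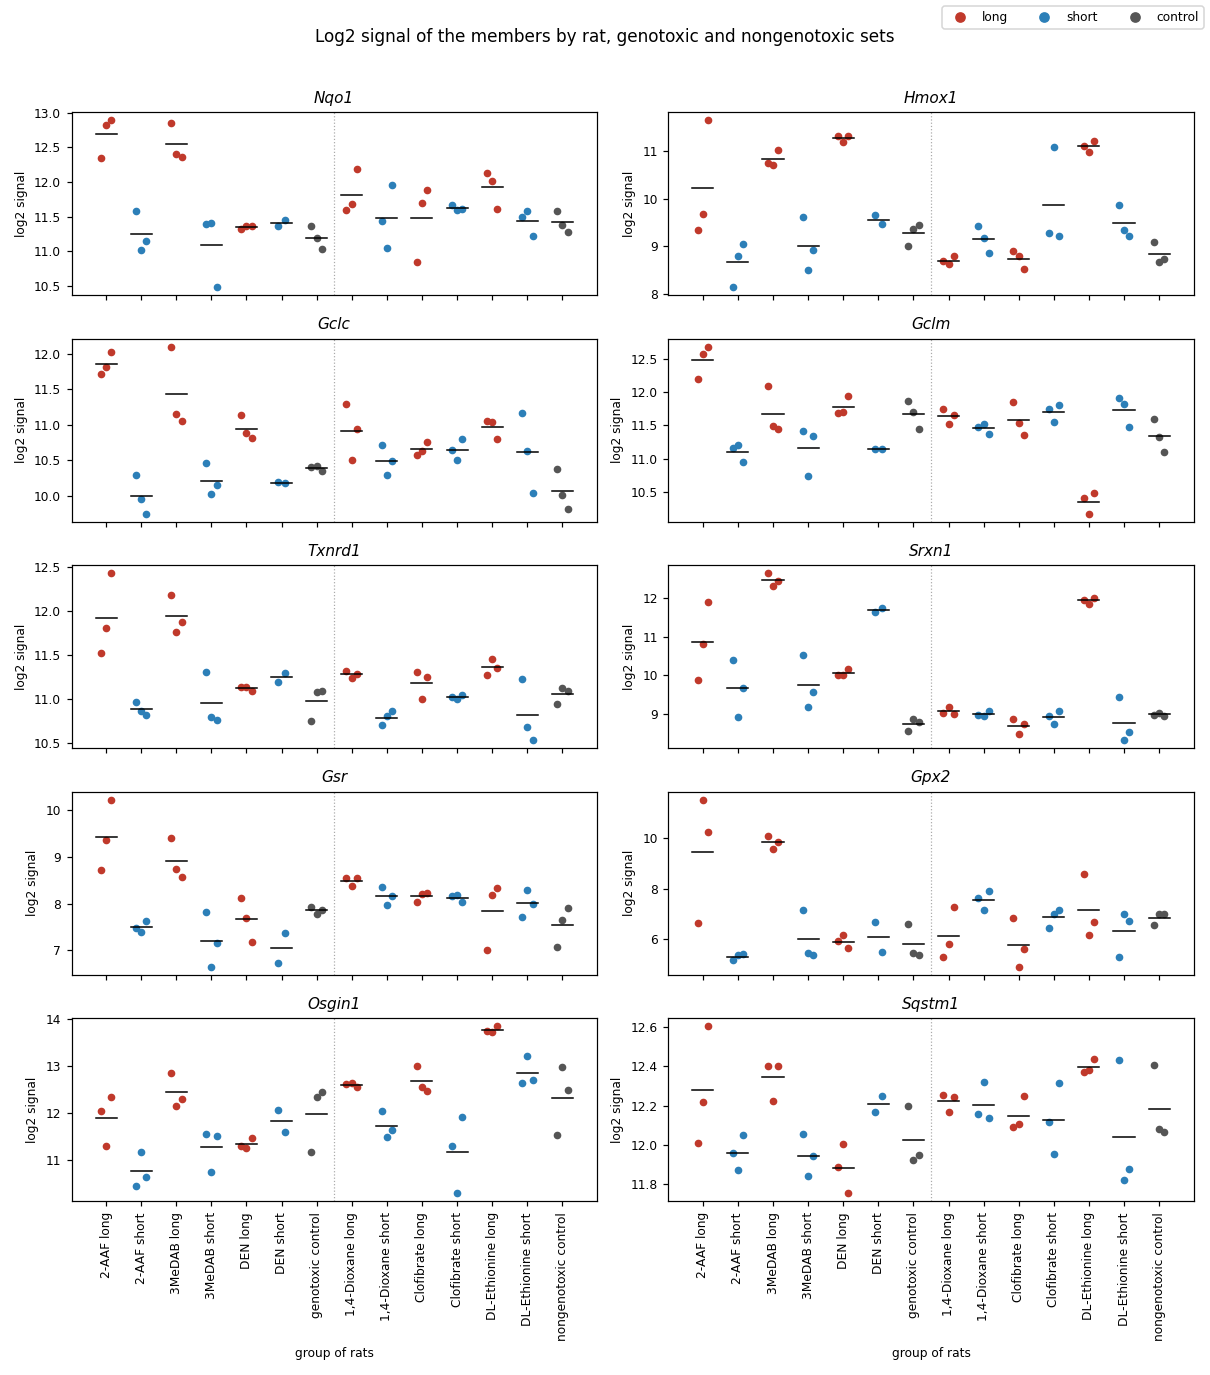
Log2 signal of the 10 genes in each rat of the genotoxic set (left of the dotted line) and the nongenotoxic set (right of it), 1 panel per gene. Points are rats, coloured by long, short or control, and bars are group means. In the Gpx2 panel the 3MeDAB long rats lie between 9.59 and 10.09, all above the control rats of that set, and 1 of the 2-AAF long rats lies at 6.64, close to the highest control rat of that set.

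**Figure D2:**
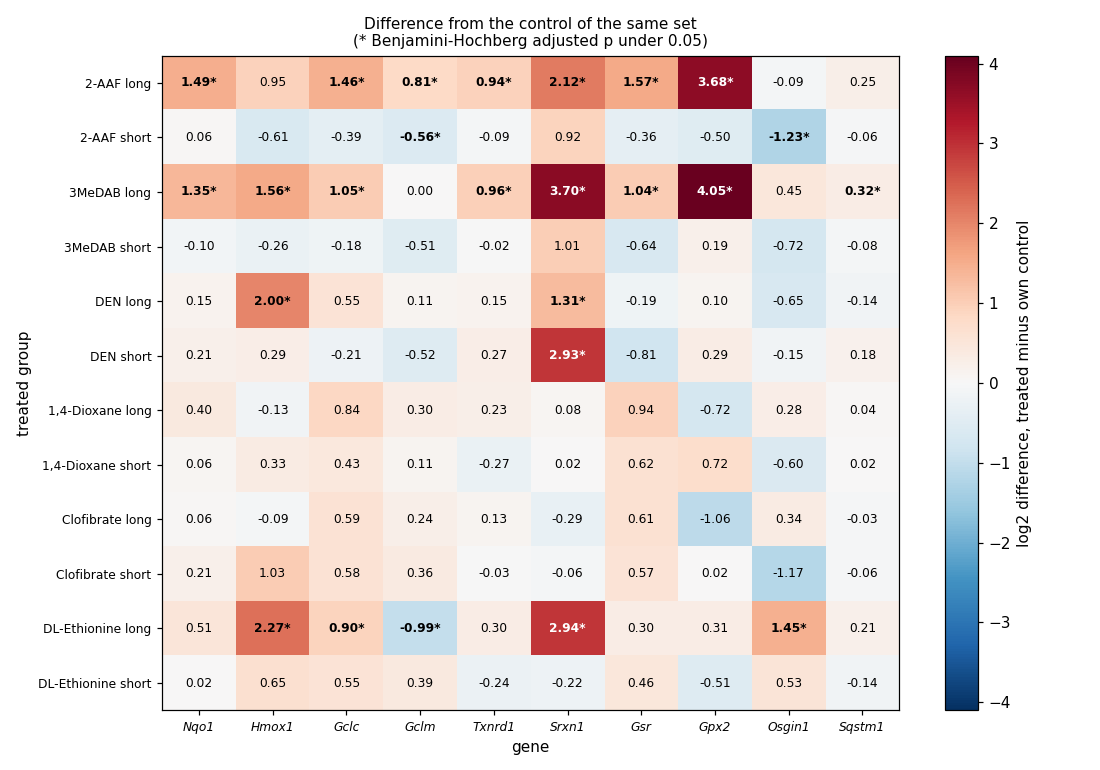
Log2 difference of each treated group from the control of its own set, for the 10 genes. Red cells are higher and blue cells lower in the treated group, and an asterisk marks an adjusted p under 0.05. Srxn1 carries an asterisk in 5 of the 12 groups, the long groups of 1,4-Dioxane and Clofibrate carry none, and the largest value is 4.05, for Gpx2 in 3MeDAB long.

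Glutathione synthesis begins with glutamate-cysteine ligase, a dimer of the catalytic subunit Gclc and the modifier subunit Gclm. Gclc rose in 3 long groups. Its log2 signal was 11.71, 11.81 and 12.03 in 2-AAF long rats, 12.10, 11.16 and 11.06 in 3MeDAB long rats and 10.40, 10.42 and 10.35 in control rats. Every rat of both treated groups lay above every control rat. The difference was 1.46 ± 0.23 (SE, 2.75-fold, adjusted p = 1.55e-05) for 2-AAF and 1.05 ± 0.23 (adjusted p = 0.000278) for 3MeDAB. With DL-Ethionine long, Gclc stood at 11.06, 11.04 and 10.80, against 10.37, 10.01 and 9.81 in that set's control, and the groups did not overlap (0.90 ± 0.23, adjusted p = 0.00128). That control had a mean of 10.07, below the means of all treated groups of its set, 10.5 in 1,4-Dioxane short to 10.97 in DL-Ethionine long. DL-Ethionine short had 10.61, and Gclc was not called between DL-Ethionine long and short. For 1,4-Dioxane long the difference from the control was nearly as large, 0.84 ± 0.23, without being called (adjusted p = 0.116). The adjusted p of a comparison depends on how many genes it calls, and in 1,4-Dioxane long these were few, 0.0938% higher and 0.075% lower.

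Gclm followed its partner in 2-AAF long but not in 3MeDAB long or DL-Ethionine long. It rose in 2-AAF long (12.19, 12.57 and 12.68 in treated rats, against 11.86, 11.70 and 11.45 in control rats), all treated rats being higher (0.81 ± 0.17, adjusted p = 0.000649). In 3MeDAB long, where Gclc rose, Gclm lay at 12.09, 11.48 and 11.45, a difference of 0.00 with a 95% interval of -0.35 to 0.36. In DL-Ethionine long, where Gclc also rose, Gclm fell to 10.40, 10.18 and 10.48, against 11.59, 11.33 and 11.10 in control rats (-0.99 ± 0.17, adjusted p = 1.63e-05). All 3 treated rats lay below all 3 controls, and the fold was 0.505. Gclm also fell in 2-AAF short, where 2 genes were lower and 0 higher, against 4.42% and 4.44% of all genes. There the treated rats had 11.16, 11.21 and 10.95 and the control rats 11.86, 11.70 and 11.45 (-0.56 ± 0.17, adjusted p = 0.0382). That call was lost without any 1 of 4 of the 6 rats (2-AAF short 1 or 3, control 1 or 2), with an adjusted p of up to 0.176 and a difference of -0.67 to -0.47.

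Glutathione reductase, Gsr, returns oxidized glutathione to its reduced form with NADPH. Gsr rose in 2 long groups, to 8.72, 9.35 and 10.21 in 2-AAF long rats and 9.39, 8.73 and 8.57 in 3MeDAB long rats, against 7.93, 7.78 and 7.85 in control rats. No rat of either group overlapped with the controls (1.57 ± 0.32, adjusted p = 0.00034 and 1.04 ± 0.32, adjusted p = 0.00627). The 2-AAF rats were spread more widely than any other group named here. Without 3MeDAB long rat 1, the highest of its group, the 3MeDAB difference was 0.80 and was no longer called (adjusted p = 0.0541). In the nongenotoxic set Gsr was not called in any group, with differences of 0.30 to 0.94 in the 3 long groups.

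Gpx2, a selenium-dependent glutathione peroxidase best known from the gut lining, had the largest rise of the 10 genes and also the largest spread. It reached 10.09, 9.59 and 9.86 in 3MeDAB long rats, against 6.60, 5.43 and 5.35 in control rats. All 3 treated rats lay far above the highest control (4.05 ± 0.76, adjusted p = 4.05e-05). Of the 3 control rats 2 lay below the median of the table, 6.21, so no fold is given for Gpx2. In 2-AAF long the 3 rats had 6.64, 11.53 and 10.24. One of them was therefore at the level of the highest control and the others far above it (3.68 ± 0.76, adjusted p = 0.00043). That low rat, 2-AAF long 1, also had the lowest mean correlation with its group of all 65 arrays (0.984), and its Gapdh 3′ minus 5′ probe set difference, a measure of RNA quality, was 0.95, against 0.28 and 0.19 in the other 2 rats. By group the Gapdh difference was 0.24 to 0.39 in 3MeDAB long, below the 0.44 to 0.63 of the control and the 0.62 to 0.80 of 3MeDAB short. Rat 2-AAF long 1 was also the lowest of its group in all of the 10 genes but Osgin1. The part of RNA quality in these results, for Gpx2 or the other genes, was not tested. Of 3 bile duct markers tested (Epcam, Krt19 and Spp1), 1, Epcam, rose in both groups (0.97 ± 0.22, adjusted p = 0.00125 in 2-AAF long and 0.91 ± 0.22, adjusted p = 0.00101 in 3MeDAB long). Krt19 fell in 2-AAF long (-0.81). Krt7 and Cldn4 lay above the median of the table on 0 of 65 arrays and were not tested. The part of the bile duct markers in the Gpx2 result was not tested. DEN long rats had 5.91, 6.15 and 5.62 (0.10 ± 0.76), which overlapped with the controls, and no nongenotoxic group was called.

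Srxn1, sulfiredoxin, repairs over-oxidized peroxiredoxins. It was higher in more treated groups than any of the other 9 genes, 5 of 12. In 3MeDAB long it stood at 12.63, 12.30 and 12.43, against 8.58, 8.88 and 8.79 in control rats (3.70 ± 0.33, adjusted p = 1.13e-10, 13-fold). In DL-Ethionine long it stood at 11.94, 11.85 and 12.01, against 8.99, 9.03 and 8.97 (2.94 ± 0.33, adjusted p = 8.17e-09, 7.66-fold). The rats of each of these groups lay close together and were all far above their controls. In 2-AAF long the 3 rats were spread widely, at 9.89, 10.81 and 11.90, yet all above the controls (2.12 ± 0.33, adjusted p = 1.57e-05). DEN long rats had 10.01, 10.00 and 10.17 (1.31 ± 0.33, adjusted p = 0.00497) and DEN short rats, which were higher, 11.63 and 11.73 (2.93 ± 0.37, adjusted p = 1.04e-06), both above the controls. Among the short groups set against a control, DEN short was the only one in which any of the 10 genes was called higher (1 higher and 0 lower, against 7.41% and 10.7% of all genes). Within the genotoxic set the order of the group means ran from 3MeDAB long (12.45 ± 0.17, SD) over DEN short (11.68 ± 0.07), 2-AAF long (10.87 ± 1.00), DEN long (10.06 ± 0.10), 3MeDAB short (9.76 ± 0.69) and 2-AAF short (9.67 ± 0.73) to the control (8.75 ± 0.15). In this order 3MeDAB long and the control overlapped with no other group. 2-AAF long overlapped with all of the 4 other groups, and DEN long, 3MeDAB short and 2-AAF short overlapped with one another.

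Txnrd1, the cytosolic thioredoxin reductase, rose in the same 2 groups as Nqo1, Gsr and Gpx2. It had 11.52, 11.80 and 12.42 in 2-AAF long rats and 12.18, 11.76 and 11.87 in 3MeDAB long rats, against 10.75, 11.08 and 11.10 in control rats. All 6 treated rats were above all 3 controls (0.94 ± 0.16, adjusted p = 6.2e-05 and 0.96 ± 0.16, adjusted p = 1.17e-05). In DEN long the difference was 0.15 (95% interval -0.19 to 0.48) and in DL-Ethionine long 0.30 (-0.03 to 0.64), neither of them called, although Srxn1 was called in both.

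Nqo1 reduces quinones to hydroquinones. Its log2 signal was 12.35, 12.83 and 12.89 in 2-AAF long rats and 12.85, 12.40 and 12.37 in 3MeDAB long rats, against 11.36, 11.19 and 11.04 in control rats. Both groups lay well above the highest control (1.49 ± 0.24, adjusted p = 2.32e-05 and 1.35 ± 0.24, adjusted p = 2.2e-05). DEN long rats, at 11.32, 11.36 and 11.36, overlapped with the controls (0.15, 95% interval -0.34 to 0.64). In DL-Ethionine long all 3 rats (12.14, 12.02 and 11.62) were above the controls (11.59, 11.38 and 11.28) without a call (0.51 ± 0.24, adjusted p = 0.076). Nqo1 is also a known target of the aryl hydrocarbon receptor. Of 4 genes tested that answer to that receptor, Cyp1a1 rose by 6.50 ± 0.60, adjusted p = 1.88e-09 in 2-AAF long and by 6.59 ± 0.60, adjusted p = 1.54e-10 in 3MeDAB long. Among the long groups Cyp1a2 rose in 2-AAF long alone (0.79) and fell in DEN long (-1.15) and DL-Ethionine long (-4.49). The mean log2 level of the 5 listed genes was 9.07 in 2-AAF long and 9.22 in 2-AAF short. It was 8.97 in 3MeDAB long, 8.97 in 3MeDAB short and 7.74 in the control. Nqo1 itself had means of 11.25 in 2-AAF short and 11.10 in 3MeDAB short, against 11.19 in the control. The part of these genes in the Nqo1 result was not tested.

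Hmox1, the inducible heme oxygenase, breaks heme down to biliverdin, iron and carbon monoxide. It rose in 3 long groups that only partly match those of Nqo1. It was 11.10, 10.98 and 11.21 in DL-Ethionine long rats, against 9.09, 8.67 and 8.73 in control rats (2.27 ± 0.40, adjusted p = 1.46e-05). It was 11.30, 11.20 and 11.31 in DEN long rats and 10.75, 10.71 and 11.03 in 3MeDAB long rats, against 9.00, 9.37 and 9.44 in control rats. All 9 treated rats lay above their controls by more than 1 unit (2.00 ± 0.40, adjusted p = 0.00044 for DEN and 1.56 ± 0.40, adjusted p = 0.00139 for 3MeDAB). In 2-AAF long 1 of the 3 rats was high and another lay inside the control range, at 9.34, 9.68 and 11.64 (0.95 ± 0.40, adjusted p = 0.0654). Clofibrate short also held a single high rat, at 9.27, 11.09 and 9.21 (1.03 ± 0.40, adjusted p = 0.167). Macrophages, which express Hmox1 as they recycle heme, had markers that moved with these groups. Of 9 macrophage markers tested, 9 rose in DL-Ethionine long (median 1.56), 6 in DEN long (0.68) and 6 in 3MeDAB long (0.48), and 6 fell in 2-AAF long (-0.61). Their mean log2 level per rat was 10.91 to 11.37 in DL-Ethionine long and 9.51 to 9.89 in its control. It was 10.80 to 10.97 in DEN long, 10.56 to 10.96 in 3MeDAB long, 9.42 to 9.78 in 2-AAF long and 10.11 to 10.30 in the control of that set. Their part in the Hmox1 result was not tested.

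Osgin1, an oxidative stress induced growth inhibitor, rose in DL-Ethionine long, to 13.75, 13.74 and 13.85 in treated rats, against 11.52, 12.98 and 12.48 in control rats. Every treated rat was higher, but the controls were spread widely (1.45 ± 0.35, adjusted p = 0.000855). It fell in 2-AAF short (10.45, 11.17 and 10.63 in treated rats, against 11.16, 12.34 and 12.46 in control rats). The groups overlapped through 1 treated and 1 control rat (-1.23 ± 0.35, adjusted p = 0.0252). That call was lost without any 1 of 4 rats (2-AAF short 1 or 3, control 2 or 3), with an adjusted p of up to 0.134 and a difference of -1.64 to -0.996. Sqstm1, the autophagy receptor p62, which also binds KEAP1, changed least. It was called in 3MeDAB long alone, at 12.40, 12.22 and 12.40 in treated rats, against 12.20, 11.92 and 11.95 in control rats (0.32 ± 0.13, adjusted p = 0.0421). The call was lost without any 1 of 4 rats (3MeDAB long 1 or 3, control 2 or 3), with an adjusted p of up to 0.136 and a difference of 0.27 to 0.40. With the mean of all 4 Sqstm1 probe sets the difference was -0.0048.

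The remaining groups gave few or no calls. With limma 0 of the 10 genes were called in 3MeDAB short, where 0.263% of all genes were higher and 0.713% lower, and 2 passed an unadjusted p under 0.05 (Srxn1, 1.01, and Gclm, -0.51). In 1,4-Dioxane short the counts were 0 called and 0 at the unadjusted p, with 1.89% of all genes higher and 3.88% lower. In Clofibrate short they were 0 and 4 (Hmox1, Gclc, Gclm and Osgin1), with 1.61% and 1.41% of all genes. In DL-Ethionine short they were 0 and 2 (Gclc and Gclm), with 2.18% and 3.2%. In the long groups they were 0 and 2 for 1,4-Dioxane (Gclc and Gsr), and 0 and 1 for Clofibrate (Gclc), where 0.0657% of all genes were higher and 0.075% lower. Leaving out 1 rat (Clofibrate short 3 or nongenotoxic control 1) gave 1 call in Clofibrate short.

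Long rats were also set against short rats of the same compound, which needs no control. The rise with 2-AAF and 3MeDAB covered nearly all of the 10 genes. For 3MeDAB 10 of 10 were higher in long rats, against 41% of all genes higher and 19.2% lower, and their median difference was 1.34 where that of all genes was 0.17. For 2-AAF 9 were higher, against 18.7% and 18.1%, Sqstm1 being the exception (0.32 ± 0.13, adjusted p = 0.0604). The largest was again Gpx2, with 6.64, 11.53 and 10.24 in 2-AAF long rats and 5.15, 5.35 and 5.38 in 2-AAF short rats (4.18 ± 0.76, adjusted p = 7.04e-05), all long rats being higher. In 3 of these genes the call was lost without 2-AAF long rat 3, the highest of its group, namely Hmox1 (1.56 with it and 0.84 without), Srxn1 (1.20 and 0.68) and Osgin1 (1.14 and 0.91). Osgin1 was also lost without 2-AAF short 1 and Srxn1 without 2-AAF short 2. Gclm in 3MeDAB (0.51) was lost without 3MeDAB long 1 or short 2, at 0.30 at the lowest.

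For DL-Ethionine 5 genes were higher and 1 lower in long rats, against 31.4% and 21.3% of all genes. Srxn1 had 11.94, 11.85 and 12.01 in long rats and 9.43, 8.33 and 8.55 in short rats (3.16 ± 0.33, adjusted p = 1.89e-09). Gclm had 10.40, 10.18 and 10.48 in long rats and 11.91, 11.82 and 11.47 in short rats (-1.38 ± 0.17, adjusted p = 6.7e-08). The first pair shows every long rat higher and the second every long rat lower. Hmox1 (1.62), Osgin1 (0.92), Txnrd1 (0.54) and Sqstm1 (0.35) were the others called higher. Of these, Osgin1 was lost without 5 of the 6 rats in turn, Sqstm1 without 3 and Txnrd1 without 1, DL-Ethionine short 3, which took all 3 together and left 3 calls. Of 9 clock genes, 2 were higher and 3 lower in DL-Ethionine long against its control, near the 30.8% and 23.5% of all genes there. In DL-Ethionine short 4 were higher and 3 lower, against 2.18% and 3.2% of all genes. The part of the clock genes in these differences was not tested.

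For DEN 3 genes were higher and 1 lower in long rats, against 19% and 11.9% of all genes. Hmox1 (1.71 ± 0.44, adjusted p = 0.00351), Gclc (0.76 ± 0.26, adjusted p = 0.0226) and Gclm (0.63 ± 0.19, adjusted p = 0.0133) were higher and Srxn1 lower (-1.62 ± 0.37, adjusted p = 0.00113). The 3 long and 2 short rats did not overlap in any of these 4. Among all 10 genes, however, 3 were higher and 4 lower without overlap, so with so few rats uncalled genes were separated too. Gclc was lost without DEN long 1 or either short rat, and Gclm without DEN long 3 or either short rat, which left 2 calls at the lowest. For Clofibrate 1 gene was higher, Osgin1 (13.01, 12.54 and 12.46 in long rats and 11.29, 10.29 and 11.91 in short rats, 1.51 ± 0.35, adjusted p = 0.0111), and 0 lower, against 1.39% and 2.19% of all genes. It was lost without Clofibrate long 1 or short 2. For 1,4-Dioxane 0 were called by limma, against 3.21% higher and 2.3% lower of all genes, and 2 passed an unadjusted p under 0.05 (Txnrd1, 0.49, and Osgin1, 0.88).

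Within the genotoxic set the long groups were compared pairwise, which takes the control out. 2-AAF and 3MeDAB differed in 2 genes, 1 in each direction, against 14.7% higher and 35.2% lower of all genes. Gclm was higher in 2-AAF long (0.81 ± 0.17, adjusted p = 0.000377) and Srxn1 lower (-1.59 ± 0.33, adjusted p = 0.000266), both without overlap of rats. For the other 8 the 95% intervals were wide, for example -1.92 to 1.17 for Gpx2 and -0.35 to 0.64 for Nqo1. Set against DEN long, 3MeDAB long was higher in 7 genes and lower in 0 (33.7% and 16.6% of all genes), from Gpx2 (3.95 ± 0.76, adjusted p = 7.98e-05) down to Sqstm1 (0.46 ± 0.13, adjusted p = 0.00471). Set against DEN long, 2-AAF long was higher in 7 and lower in 1, Hmox1 (-1.05 ± 0.40, adjusted p = 0.0418), with 14.9% and 16.7% of all genes. The Hmox1 call was lost without 5 of the 6 rats in turn (difference -1.76 to -0.61) and the Sqstm1 call (0.40) without 3 (0.23 to 0.53).

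In the nongenotoxic set, 1,4-Dioxane long and Clofibrate long differed in 0 genes by limma, with 0 at an unadjusted p under 0.05 and 0% of all genes called in either direction. The intervals still allowed differences such as -1.21 to 1.89 for Gpx2. Set against DL-Ethionine long, each of them was lower in Hmox1, Srxn1 and Osgin1 and higher in Gclm. 1,4-Dioxane long thus had 1 gene higher and 3 lower (24.1% and 32.5% of all genes). Clofibrate long had 1 higher and 3 lower (24% and 32.7%). Gclm was 1.28 and 1.22 higher in 1,4-Dioxane long and Clofibrate long than in DL-Ethionine long.

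The class comparison asked whether the mean effect of the 3 genotoxic compounds differed from that of the 3 nongenotoxic ones, each effect taken against its own control. Class and set cannot be told apart. In the long groups 2 genes were higher in the genotoxic class and 0 lower, against 8.06% and 4.08% of all genes, namely Gpx2 (3.10 ± 0.88, adjusted p = 0.0178) and Srxn1 (1.47 ± 0.38, adjusted p = 0.0112). The class means cover unlike members, since Srxn1 rose in DL-Ethionine long by more than in 2-AAF long or DEN long, and Gpx2 was not called in DEN long. Gpx2 lost its class call without genotoxic control 2 or 3 (adjusted p up to 0.0643). In the short groups Srxn1 was higher (1.71 ± 0.39, adjusted p = 0.0098) and Gclm lower (-0.82 ± 0.20, adjusted p = 0.0171), 1 gene in each direction against 2.48% and 3.19% of all genes. Gclm lost its call without genotoxic control 1 or nongenotoxic control 3 (adjusted p up to 0.0775). The signed class difference at the long duration minus that at the short duration was positive and called in 6 genes and negative and called in 0, against 25.3% and 16.1% of all genes. These were Gpx2 (3.19), Hmox1 (1.68), Gsr (1.34), Gclm (1.28), Gclc (1.02) and Nqo1 (0.72), and the count stayed at 6 without any 1 rat. In Gsr the class difference was 0.19 at the long and -1.15 at the short duration. In Gclm it was 0.46 and -0.82, in Gclc 0.24 and -0.78 and in Hmox1 0.82 and -0.86, in the same order. The sign thus differed between durations in these 4 genes, with the smaller size at the long duration, and of the 8 values the short one of Gclm alone was called. With every probe set tested on its own, 1 of the 2 Gclc probe sets was called there too. In Gpx2 the values were 3.10 and -0.08, and in Nqo1 0.68 and -0.04, where Nqo1 was called at neither duration. Srxn1 (-0.24, 95% interval -0.81 to 0.32) was not among them.

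Other genes of the pathway were counted from lists, which are to be read against the shares of all genes called in the same comparisons, 16.5% higher and 16.6% lower in 2-AAF long, 36.9% and 17.8% in 3MeDAB long, 30.8% and 23.5% in DL-Ethionine long and 10.5% and 6.58% in DEN long. Among 8 regulators of NRF2, 5 rose in 3MeDAB long, 4 in 2-AAF long, 6 in DL-Ethionine long (with 1 lower) and 0 in DEN long. The mean log2 level of the 9 listed regulators was highest in DEN short within the genotoxic set (9.44). It was 9.37 in 3MeDAB long, 9.33 in 2-AAF long, 9.06 in 2-AAF short, 8.93 in DEN long, 8.87 in 3MeDAB short and 8.69 in the control. Maff, a small MAF partner of NRF2, was the largest in 2-AAF long (2.90 ± 0.62, adjusted p = 0.000643), in 3MeDAB long (1.82 ± 0.62, adjusted p = 0.0144) and in DL-Ethionine long (1.77 ± 0.62, adjusted p = 0.0168). Nfe2l2 itself rose in 3MeDAB long (1.06) and DL-Ethionine long (1.18). Of 12 genes of conjugation and export, 10 rose in 2-AAF long, 9 in 3MeDAB long, 6 in DL-Ethionine long (3 fell) and 3 in DEN long (1 fell). The conjugate exporter Abcc3 (3.53 ± 0.43, adjusted p = 3.49e-07), the glutathione transferase Gsta3 (3.22 ± 0.34, adjusted p = 2.54e-08) and the aflatoxin aldehyde reductase Akr7a3 (2.21 ± 0.29, adjusted p = 1.33e-06) led in 2-AAF long. In 3MeDAB long Gstm3 (3.30 ± 0.39, adjusted p = 2.75e-08) and Abcc3 (2.93) led. Their medians were 1.21 in 2-AAF long, 1.31 in 3MeDAB long, 0.52 in DL-Ethionine long and 0.38 in DEN long.

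Enzymes that supply NADPH, the electron source of Gsr, Txnrd1 and Nqo1, split. Of 6, 4 rose in 2-AAF long, led by malic enzyme Me1 (0.74 ± 0.22, adjusted p = 0.0118) and transketolase Tkt (0.48 ± 0.12, adjusted p = 0.00179), while 4 fell and 1 rose in DL-Ethionine long, Me1 (-0.67) and Tkt (-0.41) among those that fell. In 3MeDAB long 3 rose and 1 fell, and in DEN long 1 fell. Of 13 other genes of glutathione metabolism, 5 rose and 1 fell in 2-AAF long, 3 and 4 in 3MeDAB long, 4 and 4 in DL-Ethionine long and 1 and 1 in DEN long, counts near those shares in DL-Ethionine long and DEN long, and below the share for higher and above that for lower in 3MeDAB long. In DL-Ethionine long the glutathione-degrading Chac1 rose (2.55 ± 0.44, adjusted p = 1.33e-05), and the cystine importer Slc7a11 rose as well (1.00 ± 0.33, adjusted p = 0.0106). In 3MeDAB long glutathione synthetase Gss rose (1.07 ± 0.15, adjusted p = 3.31e-07) and cystathionine beta-synthase Cbs fell (-2.06 ± 0.20, adjusted p = 4.07e-10). Of 10 thioredoxin and peroxiredoxin genes, 3 rose and 1 fell in 2-AAF long, 3 and 3 in 3MeDAB long and 5 and 2 in DL-Ethionine long, and 0 were called by limma in DEN long. Prdx6 rose in all of the 3 groups with calls (0.53, 0.46 and 0.78). Of 5 genes of heme and iron handling, 2 rose in 2-AAF long, 3 rose and 1 fell in 3MeDAB long, 1 and 1 in DEN long and 3 and 2 in DL-Ethionine long. The biliverdin reductase Blvra rose in 3MeDAB long (0.54), DEN long (0.86) and DL-Ethionine long (1.30 ± 0.12, adjusted p = 2.83e-10), with -0.08 in 2-AAF long. A second biliverdin reductase, Blvrb, rose in 2-AAF long (1.36 ± 0.20, adjusted p = 9.21e-06) and 3MeDAB long (0.55) and fell in DL-Ethionine long (-1.23 ± 0.20, adjusted p = 6.59e-06). The iron exporter Slc40a1 rose in 2-AAF long (0.47), 3MeDAB long (0.53) and DL-Ethionine long (0.97). The mean log2 level of the list per rat was 10.43 to 10.91 in 2-AAF long, 10.45 to 10.77 in 3MeDAB long, 10.54 to 10.61 in DEN long and 10.29 to 10.43 in the control.

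In the test set a group can be compared only with the other test compounds at the same duration or with the other duration of its own compound. DCP short stood out in 8 of the 10 genes, which were higher than the mean of ME, SN and Urethane short, and 0 were lower, against 13.6% and 28.5% of all 10220 genes tested. Srxn1 was 12.81, 12.86 and 12.95 in DCP short rats, against 8.86, 9.09 and 8.63 in ME short, 8.51, 9.07 and 9.69 in SN short and 8.72, 8.60 and 8.53 in Urethane short rats. Every DCP rat lay far above every other short rat (4.01 ± 0.19, adjusted p = 1.52e-11, 16.1-fold). Hmox1 was 13.06, 13.32 and 12.95 in DCP short rats, against 9.91, 9.18 and 8.88, 8.48, 9.24 and 10.68 and 8.98, 9.00 and 8.76 in the 3 other groups in that order. A single SN short rat was high among these, and still far below the lowest DCP rat (3.87 ± 0.35, adjusted p = 9.5e-08, 14.7-fold). Of 9 macrophage markers 0 were called in DCP short by limma (median -0.10).

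The other genes called in DCP short had smaller differences from the other compounds. Osgin1 was 12.79, 12.98 and 12.94 in DCP short rats (2.31 ± 0.35, adjusted p = 3.73e-05). Txnrd1 was 11.66, 11.99 and 11.85 (1.70 ± 0.09, adjusted p = 4.96e-11). Gclm was 11.27, 11.53 and 11.79 (1.34 ± 0.13, adjusted p = 1.65e-07). In each of these 3, and in Gclc (1.29 ± 0.14, adjusted p = 6.29e-07) and Nqo1 (0.72 ± 0.21, adjusted p = 0.00846), no DCP rat overlapped with the 9 rats of the other compounds. Both ligase subunits were thus higher together, unlike in 3MeDAB long and DL-Ethionine long. Sqstm1 was the smallest and overlapped (0.31 ± 0.10, adjusted p = 0.0154), and its call was lost without DCP short 1 (adjusted p = 0.0994). Gsr (0.22, 95% interval -0.09 to 0.52) and Gpx2 (1.00, -0.19 to 2.19) were not called. Of 8 NRF2 regulators 5 were higher in DCP short than in the other compounds, Maff by 6.05 ± 0.27, adjusted p = 5.19e-12 and Mafk by 2.05 ± 0.10, adjusted p = 1.93e-11. Among 13 genes of glutathione metabolism Slc7a11 (4.07 ± 0.22, adjusted p = 5.41e-11) and Chac1 (3.96 ± 0.19, adjusted p = 1.52e-11) had the largest differences. Of 12 conjugation and export genes 6 were higher, led by Gsta3 (1.49 ± 0.25, adjusted p = 0.000112). Of 9 clock genes 3 were higher and 4 lower in DCP short, against 13.6% and 28.5% of all genes. The part of the clock genes in these differences was not tested.

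**Figure D3:**
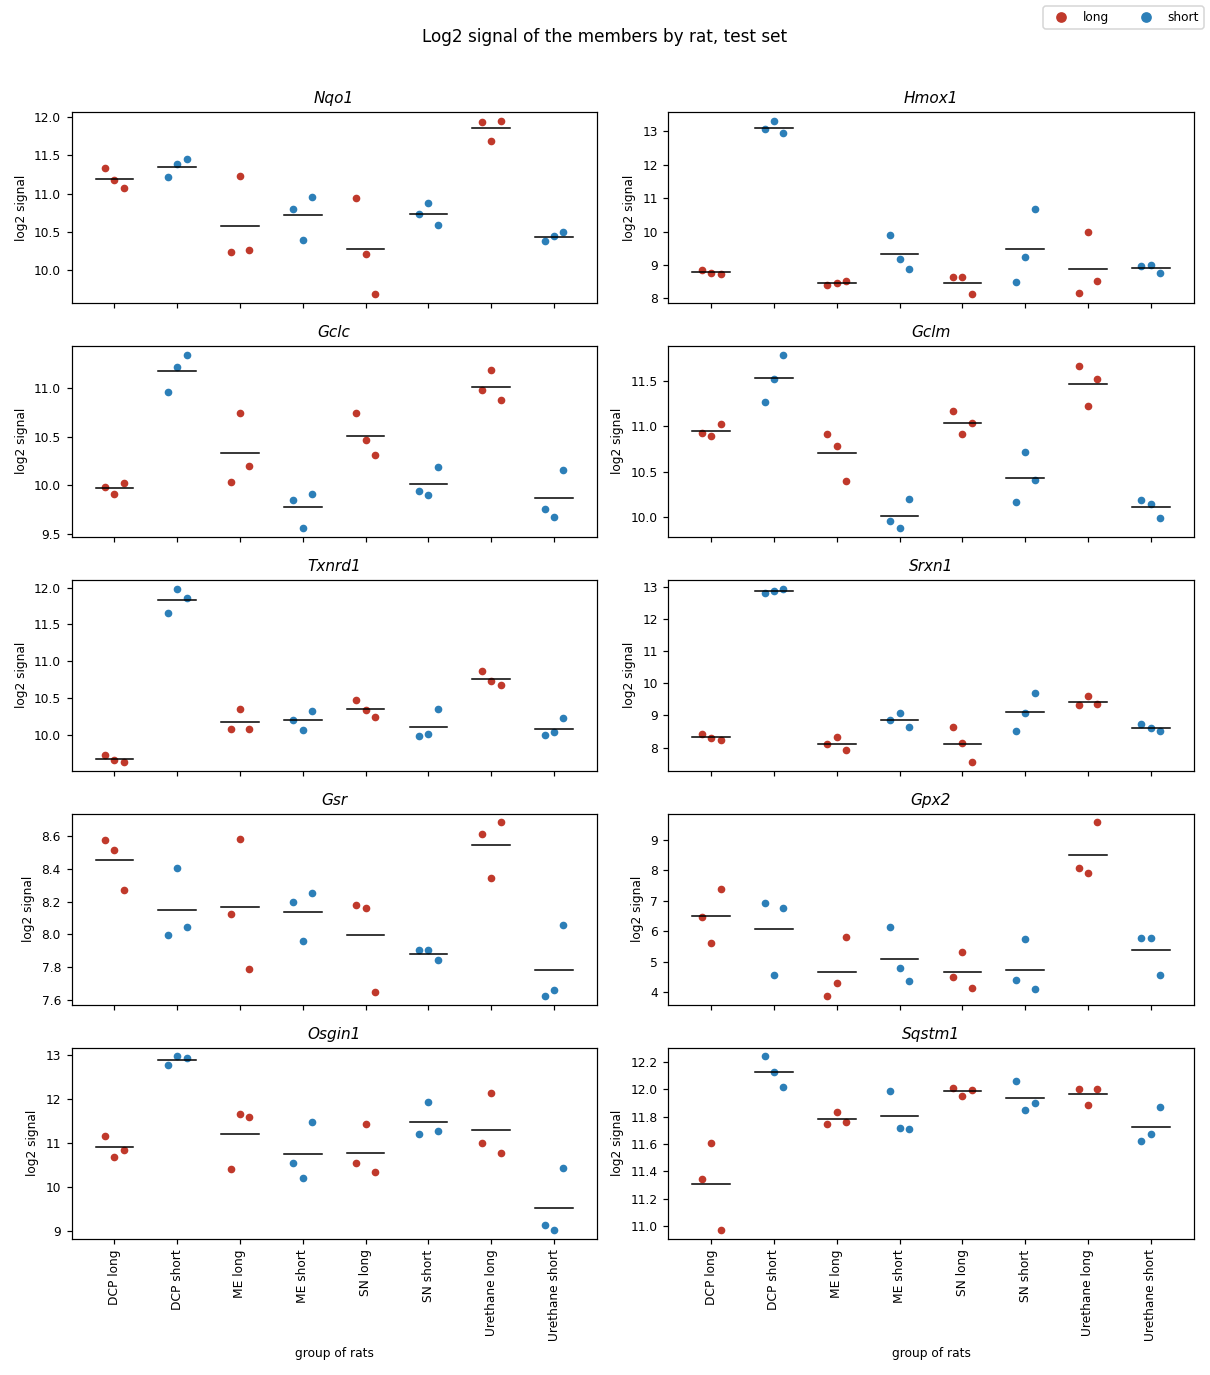
Log2 signal of the 10 genes in each rat of the test set, 1 panel per gene, with long and short groups of DCP, ME, SN and Urethane side by side. Points are rats and bars are group means. The 3 DCP short rats lie at 12.81 to 12.95 for Srxn1 and the 3 DCP long rats at 8.24 to 8.44.

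DCP long rats did not share the higher levels of DCP short. Set against DCP short, 7 genes were lower in DCP long and 0 higher, against 14.2% lower and 25.8% higher of all genes. Srxn1 had 8.44, 8.29 and 8.24 in DCP long rats and 12.81, 12.86 and 12.95 in DCP short rats (-4.55 ± 0.24, adjusted p = 7.16e-11). Hmox1 had 8.86, 8.75 and 8.74 and 13.06, 13.32 and 12.95 in the same order (-4.32 ± 0.43, adjusted p = 4.39e-07), and Txnrd1 9.73, 9.66 and 9.63 and 11.66, 11.99 and 11.85 (-2.16 ± 0.11, adjusted p = 5.46e-11). In all 3 every long rat was below every short rat. Osgin1 (-1.99), Gclc (-1.20), Sqstm1 (-0.82) and Gclm (-0.58) were lower as well, and the 7 calls held without any 1 rat. Set against the other long groups, DCP long was lower in Txnrd1 (-0.76 ± 0.09, adjusted p = 3.96e-06), Gclc (-0.65 ± 0.14, adjusted p = 0.00119) and Sqstm1 (-0.60 ± 0.10, adjusted p = 9.33e-05), 3 lower and 0 higher, against 19.9% and 17.8% of all genes. With Urethane left out of the others, a setting chosen after seeing the data, the same 3 were lower and Gpx2 (1.83) and Nqo1 (0.77) were called higher in DCP long.

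Urethane long was higher than the other long groups in 6 genes, 5 of which (all but Gpx2) were also called higher in DCP short. Set against DCP, ME and SN long, 6 were higher and 0 lower, against 6.06% and 7.78% of all genes. Gpx2 was 8.06, 7.89 and 9.56 in Urethane long rats, against 6.47, 5.62 and 7.38 in DCP long, 3.88, 4.30 and 5.80 in ME long and 4.50, 5.33 and 4.13 in SN long rats. All 3 Urethane rats were above all others, DCP long being the nearest (3.23 ± 0.57, adjusted p = 0.000919). Of the 9 DCP, ME and SN long rats 6 lay below the median of the test table, 5.64, and no fold is given. Nqo1 was 11.94, 11.69 and 11.95 in Urethane long rats, against 11.34, 11.18 and 11.08, 10.24, 11.23 and 10.26 and 10.95, 10.21 and 9.69 in DCP, ME and SN long rats (1.18 ± 0.21, adjusted p = 0.000889). Srxn1 (1.24 ± 0.19, adjusted p = 0.000365), Gclc (0.75 ± 0.14, adjusted p = 0.00131), Txnrd1 (0.69 ± 0.09, adjusted p = 6.87e-05) and Gclm (0.57 ± 0.13, adjusted p = 0.00558) were also higher, each without overlap. Gclm lost its call without Urethane long 1 (adjusted p = 0.0615). Hmox1 was not called, 1 of the 3 rats being high (8.15, 9.98 and 8.53, 0.31 ± 0.35). Of 8 NRF2 regulators 5 were higher than in the other long groups, Maff (1.04 ± 0.27, adjusted p = 0.0141) and Nfe2l2 (0.90 ± 0.15, adjusted p = 0.000712) by most. Of 12 conjugation and export genes 6 were higher, Abcc3 (1.93) and Gsta3 (1.25) by most, and 1 was lower, Gstp1 (-1.21). Of 4 erythroid markers 4 were lower (median -1.83), and their part in the result was not tested.

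Set against Urethane short, Urethane long was higher in 8 of the 10 and lower in 0, against 7.83% and 5.86% of all genes. The largest were Gpx2 (3.12 ± 0.70, adjusted p = 0.00655), Osgin1 (1.77 ± 0.43, adjusted p = 0.0106) and Nqo1 (1.42 ± 0.25, adjusted p = 0.0017), all without overlap of long and short rats. Hmox1 (-0.03) and Sqstm1 (0.24) were not called. The Srxn1 call (0.81 ± 0.24, adjusted p = 0.0302) was lost without any 1 of the 6 rats, Osgin1 without 3 of them and Gsr (0.77) without Urethane short 1, and the count lay between 5 and 7 when 1 rat was left out.

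**Figure D4:**
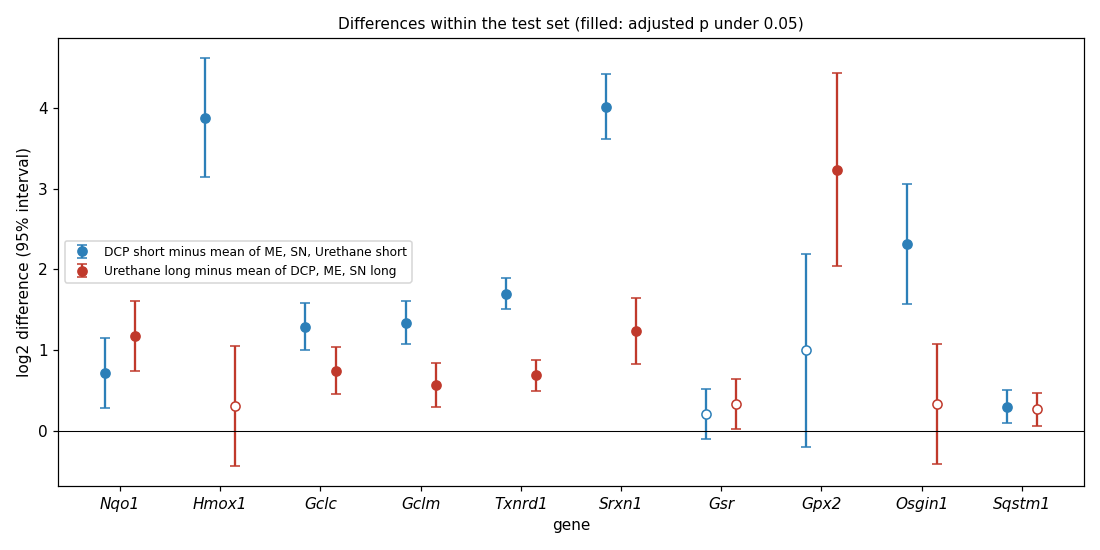
Log2 differences within the test set for the 10 genes, with 95% intervals. Blue points are DCP short minus the mean of the 3 other compounds at the short duration, red points Urethane long minus the mean of the 3 others at the long duration, and filled points have an adjusted p under 0.05. Srxn1 and Hmox1 are highest for DCP short (4.01 and 3.87), and Gpx2 is highest for Urethane long (3.23).

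The remaining test groups were set against means that hold DCP short or Urethane long. ME short was lower than the others in 5 genes and higher in 0 (4.5% and 4.75% of all genes), SN short lower in 2 and higher in 0 (3.44% and 10.8%), and Urethane short lower in 6 and higher in 0 (4.12% and 3.57%). With DCP left out of the others, a setting chosen after seeing the data, these counts were 0, 0 and 1, the 1 being Osgin1 in Urethane short (-1.58, adjusted p = 0.0275). Osgin1 was 9.14, 9.04 and 10.44 there, against 10.55, 10.22 and 11.50 in ME short and 11.21, 11.95 and 11.27 in SN short rats. In ME long 0 genes were called by limma (1.61% higher and 1.36% lower of all genes) and 4 passed an unadjusted p under 0.05. In SN long 1 was lower, Nqo1 (-0.93 ± 0.21, adjusted p = 0.0145), and 0 higher (1.96% and 3.24% of all genes), a call lost without SN long 2 or 3. With Urethane left out of the others it was lost as well (-0.61, adjusted p = 0.0836), and Sqstm1 (0.44) and Txnrd1 (0.43) were called higher in its place. Set against its short group, ME long was higher in Gclc (0.56 ± 0.17, adjusted p = 0.0288) and Gclm (0.69 ± 0.16, adjusted p = 0.00648) and lower in Srxn1 (-0.74 ± 0.24, adjusted p = 0.039), 2 higher and 1 lower, against 8.77% and 8.23% of all genes. SN long was higher in Gclm (0.61 ± 0.16, adjusted p = 0.0311) and lower in Srxn1 (-0.98 ± 0.24, adjusted p = 0.0245), 1 in each direction, against 1.7% and 3.15%. Gclm in SN and Srxn1 in ME were each lost without 5 of the 6 rats in turn, Srxn1 in SN without 4 and Gclc in ME without 3.

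Across the 22 groups the 10 genes therefore did not move as 1 block, and Srxn1 and Gpx2 show this most plainly. Gpx2 was called higher in 2-AAF long, 3MeDAB long and Urethane long and Srxn1 in these and in DEN short, DEN long, DL-Ethionine long and DCP short. Over all 65 arrays, centred within each set, Pearson r between pairs of the 10 genes ran from 0.08 to 0.81 (45 pairs, median 0.50). These points share their groups and arrays. The highest were Txnrd1 with Srxn1 (0.81) and Hmox1 with Srxn1 (0.80), and the lowest Gclm with Srxn1 (0.08). That last pair had r of 0.23 over the 20 arrays of the genotoxic set, -0.88 over the 21 of the nongenotoxic set and 0.50 over the 24 of the test set. The negative value goes with DL-Ethionine long, where Srxn1 rose and Gclm fell. For the ligase subunits Gclc and Gclm r was 0.87, -0.09 and 0.83 in the genotoxic, nongenotoxic and test sets.

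**Figure D5:**
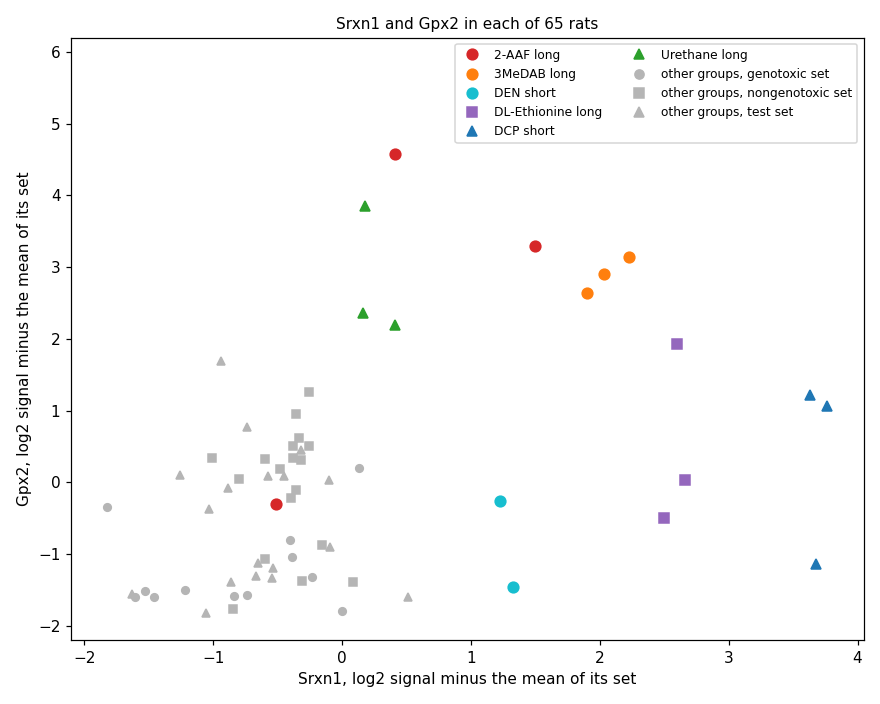
Srxn1 (horizontal) and Gpx2 (vertical) in each of 65 rats, as log2 signal minus the mean of the rat's own set. Marker shape gives the set and colour the 6 groups named in the key, with all other groups in grey. The 3MeDAB long rats are high on both axes, the DCP short rats lie at 3.63 or above on the Srxn1 axis, and the Urethane long rats and 1 of the 2-AAF long rats are high for Gpx2 with Srxn1 below 0.5.

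The genes whose pattern was most like the mean of the 10, by Pearson r over the same 65 centred arrays among 9944 other genes, were Htatip2 (0.90), Ddit4l (0.89), Tm2d3 (0.87), Rheb (0.86) and Cbr1 (0.85), the last a carbonyl reductase. For comparison, 5% of the genes searched had an r above 0.588. For single genes the most alike were Gdf15 for Srxn1 (0.92), Htatip2 for Gclc (0.87), Atf3 for Hmox1 (0.85), Stk40 for Txnrd1 (0.82), Cops5 for Gsr and Slc17a3 for Gclm (0.81 each), Akr7a3 for Nqo1 (0.80), Rangrf for Gpx2 (0.76), Pard6b for Osgin1 (0.75) and Ube2z for Sqstm1 (0.69).

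Of the 10 genes, 4 have more than 1 probe set, Gclc 2, Txnrd1 2, Srxn1 3 and Sqstm1 4. Of the 17 probe sets 14 were tested in both fits. The probe sets of Gclc differed in sign in 4 of 39 comparisons, those of Srxn1 in 7, those of Txnrd1 in 9 and those of Sqstm1 in 20. For Srxn1 in DEN long the main probe set gave 1.31 and the dimmer second one 0.39, which was not called. In DEN short both were called, at 2.93 and 1.29. All of the sign differences of Sqstm1 fell in the training sets. There 3 of its probe sets were tested, 1 of them dim (mean 5.65 over the 65 arrays). In the test set, with 2 probe sets tested, the signs agreed in every comparison. Sqstm1 is thus the gene whose direction in the training sets differed most often between probe sets.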

How the data were processed

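RNA from the livers of 65 rats was hybridised to 65 Affymetrix arrays. The deposited log2 values are the authors' RMA output, as their design description states without a version, after they had dropped 1 array that failed. The ranges of the 3 sets differ, so they appear to have been normalized separately. Each of 31099 probe sets was named through the platform annotation, and control probe sets (57), those with several symbols (436) and those with none (9780) were left out. A gene was represented by its probe set with the highest mean over all arrays and kept if it exceeded the median of the table in at least 2 arrays.

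Training sets (41 arrays, 10660 genes) and the test set (24 arrays, 10220 genes) were each fitted with limma 3.58.1 in R 4.3.3, with 1 mean per group, over 39 comparisons. P-values are two-sided and Benjamini-Hochberg adjusted over all genes of a comparison. Per the labels' protocols the rats of a group were separate animals. The replicate numbers did not pair the samples, since the deviations of same-numbered samples from their group means had a median correlation of 0.000254, -0.00874 and -0.00674 in the genotoxic, nongenotoxic and test sets. The fit was checked on simulated data. Alternatives were other filters, probe set rules, a moderated fit with trend, quantile normalization, a replicate block, a fit of the compared groups only and leaving out each rat. The 10 genes, the pathway and marker lists and the tests were chosen with earlier results of these data known. All 10 genes are named; of a pathway list, at most 3 called genes with the largest difference per comparison, and of the alike genes the 5 closest to the mean and the closest to each gene. Figures were drawn with matplotlib 3.10.9. 0 columns of values were left without a sample.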

Additional observations from a re-analysis of the deposited data

Results flagged for a closer look

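The results below were picked out because the effect of the 3 genotoxic compounds differed from that of the 3 nongenotoxic ones by the test of that difference itself (limma, Benjamini-Hochberg adjusted), with n = 3 rats a group and 2 in DEN short. Class and set cannot be told apart, since each class was measured in its own set with its own control. At the long duration Gpx2 was higher by 3.10 ± 0.88 (SE, adjusted p = 0.0178) and Srxn1 by 1.47 ± 0.38 (adjusted p = 0.0112) in the genotoxic class. The SE covers rats within groups, not the spread between the compounds of a class. Gpx2 was not called in DEN long, and Srxn1 rose in DL-Ethionine long by more than in 2-AAF long or DEN long. The Gpx2 call was lost without genotoxic control 2 or 3 (adjusted p up to 0.0643). At the short duration Srxn1 differed by 1.71 ± 0.39 (adjusted p = 0.0098) and Gclm by -0.82 ± 0.20 (adjusted p = 0.0171). The Gclm call was lost without genotoxic control 1 or nongenotoxic control 3 (adjusted p up to 0.0775). With the second Srxn1 probe set the long difference was 1.11 and was called, and the short difference was 0.57 and was not.

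In 6 genes the signed class difference at the long duration exceeded that at the short duration. The excess was 3.19 ± 0.63 in Gpx2 (adjusted p = 0.00016), 1.68 ± 0.33 in Hmox1 (adjusted p = 0.000146), 1.34 ± 0.26 in Gsr (adjusted p = 0.000142) and 1.28 ± 0.15 in Gclm (adjusted p = 5.77e-08). In Gclc it was 1.02 ± 0.19 (adjusted p = 7.8e-05) and in Nqo1 0.72 ± 0.20 (adjusted p = 0.00471). In Gsr, Gclm, Gclc and Hmox1 the class difference was positive at the long duration (0.19, 0.46, 0.24 and 0.82) and negative and of larger size at the short one (-1.15, -0.82, -0.78 and -0.86), and of these only that of Gclm at the short duration was called. With every probe set tested on its own, 1 of the 2 Gclc probe sets was called at the short duration as well.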

How the results depend on the processing

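Of 141 calls of a gene in a comparison, 107 held without any 1 rat and 34 were lost at least once. Over the alternatives the calls kept number 138 with no filter, 141 with a stricter filter, 141 with trend and robust moderation, 140 after quantile normalization, 139 when every probe set was tested, 130 with the mean of a gene's probe sets and 120 when only the compared groups were fitted. With the mean of probe sets Sqstm1 turned to -0.0048 in 3MeDAB long against its control and to -0.049 in DL-Ethionine long against short, and the counts were 1 for DEN long, 1 for ME long against short and 1 for SN long against short. With only the compared groups, which leaves fewer arrays, the counts were 0 for 2-AAF short, 3 for DEN short, 2 for 1,4-Dioxane long against short, 0 for Clofibrate long against short, 4 for 2-AAF long against DEN long, 0 for SN long, and 0 for ME and for SN long against short. ME long had 1 call with the stricter filter, with trend and robust moderation and after quantile normalization, and SN long had 2 with the stricter filter. Where no value shows it, the cause was not tested.

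Chosen after seeing the data, leaving DCP out of the other compounds gave 0, 0 and 1 calls for ME, SN and Urethane short and turned ME short Hmox1 to 0.13, Srxn1 to 0.0057 and Txnrd1 to 0.10, and SN short Srxn1 to 0.35. Leaving Urethane out gave 5 calls for DCP long and 2 for SN long, Sqstm1 and Txnrd1, both higher, while the Nqo1 call of SN long was lost (adjusted p = 0.0836).

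With the replicate number as a block, 139 of 141 calls were kept. The counts moved to 3 in DEN long (2 without it), 3 in the short class difference (2), 8 in 3MeDAB long against DEN long (7), 4 in ME short (5) and 5 in Urethane short (6), and no other count moved. The numbers do not pair the samples.

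Without 1 rat the count against the control lay between 0 and 3 in 2-AAF short, 1 and 2 in DEN short, 7 and 9 in 2-AAF long, 6 and 8 in 3MeDAB long, 0 and 1 in Clofibrate short and 5 and 6 in DL-Ethionine long. It stayed at 2 in DEN long and at 0 in 3MeDAB short, 1,4-Dioxane short and long, DL-Ethionine short and Clofibrate long. Long against short it lay between 6 and 10 for 2-AAF, 8 and 10 for 3MeDAB, 2 and 4 for DEN, 0 and 1 for Clofibrate, 3 and 6 for DL-Ethionine, 1 and 3 for ME, 0 and 2 for SN and 5 and 7 for Urethane, and stayed at 0 for 1,4-Dioxane and 7 for DCP. For the class it lay between 1 and 3 at each duration and stayed at 6 by duration. Between long groups it lay between 2 and 3 (2-AAF and 3MeDAB), 6 and 8 (2-AAF and DEN, 3MeDAB and DEN) and 4 and 5 (1,4-Dioxane or Clofibrate and DL-Ethionine), and stayed at 0 for 1,4-Dioxane and Clofibrate. Against the other test compounds it lay between 7 and 9 in DCP short, 3 and 5 in ME short, 2 and 3 in SN short, 4 and 6 in Urethane short, 0 and 1 in ME long, 0 and 3 in SN long and 5 and 7 in Urethane long, and stayed at 3 in DCP long. The 2 or 3 rats of a group limit the precision, and Gpx2 lay below the median of the table in 2 of the 3 genotoxic control rats.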

Other observations

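Gpx2 had the same value, 5.78, in Urethane short rats 1 and 2. The whole arrays were not copies of each other, since they shared 14 of 31099 values. Hmox1 had a single high rat in 4 groups, at 11.64 in 2-AAF long, 11.09 in Clofibrate short, 10.68 in SN short and 9.98 in Urethane long.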
